A study of Mus musculus with 3 samples.

Results

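The genes that make and use microRNAs were followed in sorted mouse bone marrow pre-B cells, as 10 members found by symbol among the 26286 Entrez identifiers of the deposited count table. They are Drosha and Dgcr8, which form the nuclear Microprocessor, the exporter Xpo5, the cytoplasmic nuclease Dicer1 with its partners Tarbp2 and Prkra, and the 4 Argonaute genes Ago1, Ago2, Ago3 and Ago4. The members were chosen by function, with earlier results of these data known. All 10 had a row and passed the filter on low counts. The data are 3 RNA-seq libraries of 1 group, so levels, their order and the spread between libraries are the measurements. Every library came from marrow of a mouse bitransgenic for CAG-rtTA3 and TRE-GFP-shLuc.1309, given doxycycline for 3 days to switch on a control short hairpin RNA linked to GFP. The sort took GFP+, B220+, CD25+ cells that lacked IgM and Kit. All 3 libraries thus carried both transgenes, the drug and the hairpin, and no library without them was analysed here. The labels give no age and do not say whether each library was a separate mouse or a pool.

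A microRNA begins as a hairpin within a long transcript. The RNase III enzyme Drosha and its RNA-binding partner Dgcr8 cut the hairpin out in the nucleus, Xpo5 carries it to the cytoplasm with the GTPase Ran, and Dicer1 removes its loop. The strand that is kept is bound by an Argonaute protein, which recruits Tnrc6 scaffolds and the deadenylation and decapping enzymes to messages that pair with it. A short hairpin RNA uses steps of this route, and which steps the hairpin in these libraries used was not measured. Ago2 is the mammalian Argonaute known for cutting a fully paired target. In mice, deletion of Dicer1 early in the B lineage is known to arrest cells near the step from pro-B to pre-B cell, and Ago2 is known to be needed for normal B lymphoid development.

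Total counts ranged from 12021576 to 32086649, with replicate 3 the deepest. With no statement that the libraries are separate animals, p-values measure only the spread among these 3 and part of it may be technical. The 5 pre-B markers Cd79a, Pax5, Ebf1, Il2ra and Rag1 all exceeded 10 RPKM in every library, with sums of 1655, 1787 and 1529.8 RPKM in replicates 1, 2 and 3. RPKM is the read count scaled by gene length and library size, computed from the deposited counts and lengths. The 4 T cell markers summed to at most 1.14 RPKM and the 3 erythroid markers to at most 7.61 RPKM. The 6 neutrophil markers were not low, at 1238, 1496 and 2212 RPKM in replicates 1, 2 and 3, so transcripts typical of neutrophils were present in all 3 and highest in replicate 3. The 3 monocyte and macrophage markers summed to between 7.33 and 9.24 RPKM. Their part in the levels below was not tested, and in sorted bulk cells, fewer cells of a type and less RNA per cell cannot be told apart.

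The start regions of 4 members are shown as examples of the 2 library orders that 6 members follow and that differ in the place of replicate 2. Drosha, Tarbp2 and Ago3 run from high to low in replicate order 1, 3, 2, and Ago1, Ago4 and Dicer1 in the order 2, 1, 3. Among genes tested, 28.4% were highest in replicate 1 and 36.5% in replicate 2. Replicate 2 was lowest for 36.3% and replicate 3 for 36.1%. The share of all genes with each full order was not computed, and no member varied beyond genes of like abundance. The orders thus serve only to choose examples. Each is 250 bases before to 50 after a RefSeq start on GRCm38.p6, printed on the gene's strand, and capitals mark matches on either strand to CCAAT, the CCAAT box, GGGCGG, the GC box, or CCGGAAG, an ETS factor core. In Drosha an ETS core and a CCAAT box, both read on the opposite strand, adjoin. Drosha lies on the plus strand at chr15:12824565-12824864, Tarbp2 on the plus strand at chr15:102517942-102518241, Ago1 on the minus strand at chr4:126468582-126468881 and Ago4 on the minus strand at chr4:126533409-126533708. For Ago1 the more upstream of 2 RefSeq starts is shown.
Drosha: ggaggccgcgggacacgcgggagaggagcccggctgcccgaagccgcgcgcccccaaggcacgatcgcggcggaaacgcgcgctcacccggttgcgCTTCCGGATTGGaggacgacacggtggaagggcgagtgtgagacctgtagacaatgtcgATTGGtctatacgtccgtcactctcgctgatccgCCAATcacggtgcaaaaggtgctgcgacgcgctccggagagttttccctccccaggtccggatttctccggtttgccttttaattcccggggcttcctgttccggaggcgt
Tarbp2: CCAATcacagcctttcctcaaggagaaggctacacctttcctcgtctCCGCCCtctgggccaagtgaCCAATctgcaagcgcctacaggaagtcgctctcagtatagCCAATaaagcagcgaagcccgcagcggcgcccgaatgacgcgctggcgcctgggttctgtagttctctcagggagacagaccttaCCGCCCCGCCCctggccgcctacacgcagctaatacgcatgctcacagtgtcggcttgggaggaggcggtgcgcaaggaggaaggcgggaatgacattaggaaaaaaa
Ago1: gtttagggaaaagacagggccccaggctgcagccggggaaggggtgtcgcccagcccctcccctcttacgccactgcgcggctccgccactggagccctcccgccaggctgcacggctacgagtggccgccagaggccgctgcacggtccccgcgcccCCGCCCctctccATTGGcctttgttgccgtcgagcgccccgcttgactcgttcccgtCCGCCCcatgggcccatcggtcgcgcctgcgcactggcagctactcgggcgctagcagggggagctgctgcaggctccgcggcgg
Ago4: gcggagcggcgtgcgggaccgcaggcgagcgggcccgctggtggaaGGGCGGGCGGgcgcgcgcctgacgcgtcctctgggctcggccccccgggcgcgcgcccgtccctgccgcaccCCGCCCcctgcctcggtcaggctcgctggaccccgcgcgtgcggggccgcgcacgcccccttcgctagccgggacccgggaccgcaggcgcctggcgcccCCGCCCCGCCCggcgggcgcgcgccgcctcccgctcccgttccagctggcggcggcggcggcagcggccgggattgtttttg
The CCAAT box occurred 3 times in each of the Drosha and Tarbp2 windows, 1 time in that of Ago1 and 0 times in that of Ago4. Among the windows not printed, Dgcr8 had 4 CCAAT boxes, Dicer1 had 1, and Ago3, Prkra and Xpo5 had 0, so genes of 1 library order did not share a count. The GC box occurred 5 times in the Ago4 window, 3 times in that of Tarbp2, 2 times in that of Ago1 and 0 times in that of Drosha, and 5 times in the unprinted window of Ago3, which has the library order of Drosha. Neighbouring GC boxes overlap in Ago4 and Tarbp2. Of 32851 RefSeq windows of this length, 37.4% held a CCAAT box, 35.7% a GC box, 8.86% an ETS core and 13.6% a TATA box, searched as TATAAA. RefSeq windows were matched for 9 of the 10 members. Of those 9, the CCAAT box was held by 5, the GC box by 8, the ETS core by 2 and the TATA box by 0. All 9 windows had more G and C (59.0% to 83.3%) than the median window (52.7%). These matches are descriptions of sequence and not measured binding. In RefSeq order along the chromosome, Ago3, Ago1 and Ago4 are direct neighbours, with no other protein-coding gene between them, whereas Ago2 lies elsewhere, between Chrac1 and Ptk2.

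All 10 members were transcribed in every library, and their mean levels spanned from 3.69 to 35.2 RPKM. Each exceeded 1 RPKM in all 3 libraries, a level reached by 42.4% of the 26286 identifiers, and 6 exceeded 10 RPKM in all 3, a level reached by 25.3%. Their median was 3.999 ± 0.106 on the log2(RPKM + 0.5) scale (SD, n = 3 libraries), against 2.57 over the 17423 genes with a count. The order by mean RPKM was Ago1, Dgcr8, Ago2, Xpo5, Dicer1, Tarbp2, Drosha, Ago4, Prkra and Ago3. Ago1 stood alone at the top, with Dgcr8, Ago2, Xpo5 and Dicer1 close together, Tarbp2 and Drosha below them, Ago4 lower, and Prkra and Ago3 at the bottom. Ago1 stood above 84.5% and Ago3 above 45.1% of the genes with a count.

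**Figure D1:**
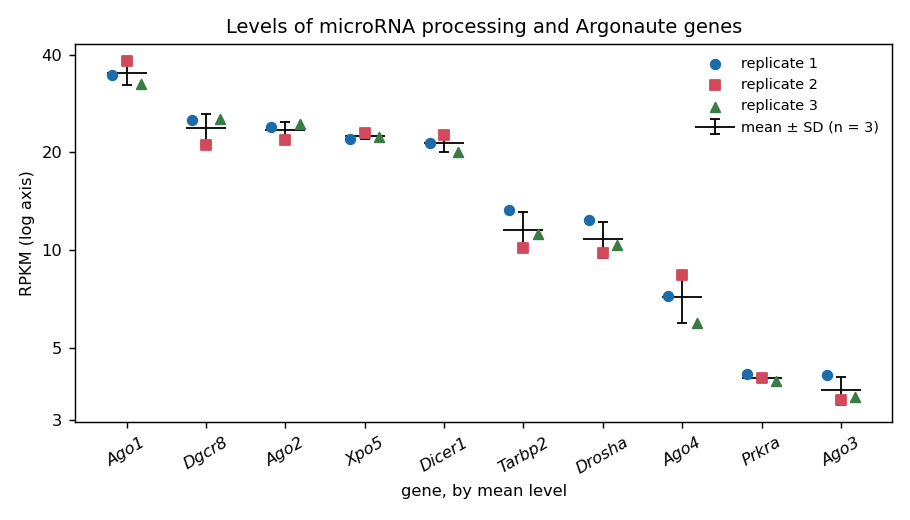
Level of each member in RPKM (log axis) in replicates 1, 2 and 3, with the mean and SD of the 3 libraries, ordered by mean. Ago1 is highest at 35.2 RPKM in the mean, Dgcr8, Ago2, Xpo5 and Dicer1 lie between 21.4 and 23.9 RPKM, and Prkra and Ago3 are near 4 RPKM.

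Neighbours in this order were compared within each library, where the difference in log2(RPKM + 0.5) was called apart if it had 1 sign in all 3 libraries and a mean above its SD. The order came from the same 3 libraries, so the direction of each mean difference was largely set in advance. Of the 9 neighbouring pairs, 6 were apart by this rule. The 3 that were not were Dgcr8 and Ago2, Ago2 and Xpo5, and Xpo5 and Dicer1, so the order among these 4 genes was not settled by the 3 libraries. The widest step between neighbours was from Dicer1 to Tarbp2, 0.87 ± 0.23 on the log2 scale or 1.83-fold, and the narrowest called apart was Tarbp2 over Drosha, 0.085 ± 0.029. Prkra exceeded Ago3 by only 0.12 ± 0.10. The rule leaves out counting noise, which alone gives a coefficient of variation of 10.2% for Prkra and 5.71% for Tarbp2. In all, 15 differences between members were computed, and an exact two-sided sign-flip test over 3 libraries cannot give a p below 0.25, so none could pass 0.05 (the lowest adjusted p was 0.288). The order rests on the gene lengths in the table: by count scaled to library size alone, without length, Dicer1 with 9851 bases moved to the second place and Tarbp2 with 1736 bases to the last but one, while Ago1 kept the first.

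The Microprocessor pair was unequal. Drosha (Entrez 14000), the nuclease, had 701, 535 and 1528 counts in replicates 1, 2 and 3, which gave 12.3, 9.77 and 10.4 RPKM. Dgcr8 (Entrez 94223), the double-stranded RNA binding partner that holds the hairpin, had 1319, 1069 and 3450 counts, or 25.1, 21.1 and 25.4 RPKM. The Dgcr8 values lay above all Drosha values, with a ratio of 2.04, 2.16 and 2.44 in replicates 1, 2 and 3. Microprocessor is known to cut hairpins in the Dgcr8 message itself, a step these gene counts do not measure. The Dgcr8 count carries a further limit, since 825 of its 7696 exon bases in GENCODE M21 lie opposite exons of Trmt2a, a tRNA methyltransferase gene at 46.4 ± 1.90 RPKM, and no source used here gives the strand setting of the counting. On the same strand, 327 exon bases lie in Gm49776, a protein-coding gene. Of the Dgcr8 words of 31 transcript bases, matched on both strands, 16.9% also occur in another annotated gene, most of all in Trmt2a. That share takes in these overlaps and is not a separate limit.

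Xpo5 (Entrez 72322), the exporter of precursor hairpins, had the smallest measured spread relative to its mean. Its counts of 1016, 1019 and 2656 gave 22.1, 22.9 and 22.3 RPKM in replicates 1, 2 and 3, a mean of 22.4 ± 0.46 RPKM (SD, n = 3). Its coefficient of variation, the SD as a share of the mean, was 2.04%, below the 2.80% that counting noise alone would give. Prkra, at 2.54%, also lay below its counting noise of 10.2%, so which of these genes was steadier is not settled.

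At the dicing step the nuclease stood above both partners. Dicer1 (Entrez 192119) had 2625, 2682 and 6353 counts, or 21.5, 22.7 and 20.04 RPKM. Tarbp2 (Entrez 21357), which encodes the Dicer partner TRBP, had 286, 211 and 626 counts, or 13.3, 10.1 and 11.2 RPKM. Prkra (Entrez 23992), which encodes PACT, a Dicer partner also known as an activator of the kinase PKR, had 80, 75 and 197 counts, or 4.14, 4.03 and 3.94 RPKM. The 3 genes did not overlap in any library, and their order was the same in each. Tarbp2 exceeded Prkra by 1.40 ± 0.17 on the log2 scale, or 2.64-fold, and Dicer1 exceeded Drosha, the other RNase III enzyme of the pathway, by 0.96 ± 0.20, or 1.94-fold. The Prkra counts are the fewest of the 10 members, and counting noise alone gives 10.2% at this depth. Of the 4848 Tarbp2 transcript words of 31 bases in GENCODE M21, 16.6% also occur in another annotated gene. The deposited Tarbp2 length is only 1736 bases, so some of these words may lie outside the counted exons. Whether its counts depend on how shared reads were assigned was not tested.

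Among the Argonautes, Ago1 and Ago2 made up most of the transcript pool. Ago1 (Entrez 236511) had 3049, 3237 and 7385 counts, or 34.7, 38.2 and 32.5 RPKM in replicates 1, 2 and 3, and Ago2 (Entrez 239528) had 2396, 2097 and 6344 counts, or 24.0, 21.8 and 24.5 RPKM. Ago1 was higher than Ago2 in each library, by 0.57 ± 0.20 on the log2 scale or 1.49-fold. Ago4 (Entrez 76850) followed with 584, 654 and 1248 counts, or 7.21, 8.37 and 5.95 RPKM, and Ago3 (Entrez 214150) with 390, 316 and 864 counts, or 4.11, 3.45 and 3.52 RPKM. The 4 genes kept this order in every library and no values of different genes overlapped.

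As shares of their summed RPKM, Ago1 took 50.5 ± 2.34%, Ago2 33.8 ± 3.32%, Ago4 10.3 ± 1.35% and Ago3 5.32 ± 0.53% (SD, n = 3). The sum itself was 70.1, 71.8 and 66.5 RPKM in replicates 1, 2 and 3. Of the 31-base words of the Ago1 transcripts 2% occur in another Argonaute gene, of Ago3 0.845%, of Ago2 0.164% and of Ago4 0.116%. These are exact matches only. Read length and the rule for shared reads are not given, so how well reads were told apart is not known. Ago2 shares 7.27% of its words with any other annotated gene, and 219 of its exon bases lie opposite Chrac1, a gene at 25.5 ± 2.78 RPKM.

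**Figure D2:**
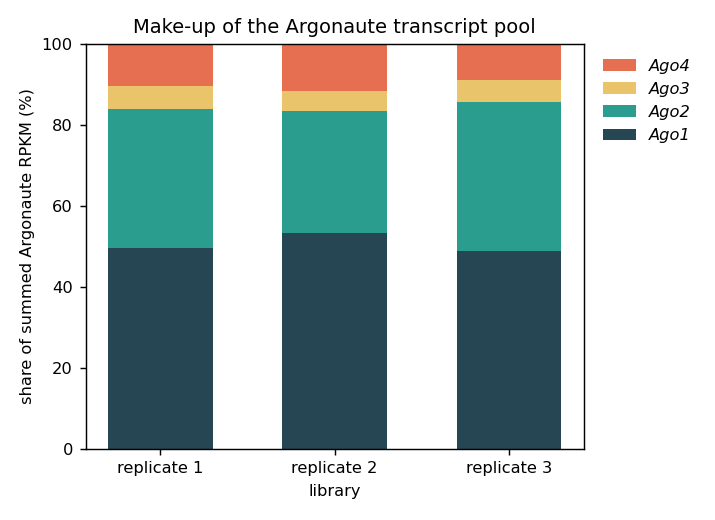
Share of Ago1, Ago2, Ago3 and Ago4 in their summed RPKM (percent) in replicates 1, 2 and 3. Ago1 takes between 48.9% and 53.2% and Ago2 between 30.3% and 36.9%, with Ago4 near 10% and Ago3 near 5%.

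The spread between libraries was then set against counting noise. Of the 10 members, 8 varied over the libraries beyond what Poisson counts allow (chi-square test with Benjamini-Hochberg adjustment over 12147 genes), where 54.6% of all genes tested did so. A gene with more counts passes this test at a smaller difference, and among genes within 1.5-fold of each member's mean count the share ran from 42.8% around Prkra to 82.6% around Ago1, so the members' count is not set apart from other genes. With replicate 1 or replicate 2 left out 5 members passed, and with replicate 3 left out 6. The adjusted p was 7.04e-13 for Ago1, 2.7e-11 for Ago4, 7.15e-07 for Dicer1, 2.61e-06 for Dgcr8, 4.93e-05 for Ago2, 0.000148 for Drosha and 0.0175 for Tarbp2. Ago3 passed at 0.0403 but not when all genes with a count were tested (0.0542) or with replicate 3 thinned to the smallest total (0.0757). Xpo5 (0.703) and Prkra (0.943) did not pass, and Prkra varied by 2.54%, less than counting noise alone would give.

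These differences were small. The highest library exceeded the lowest by 1.41-fold for Ago4, 1.31-fold for Tarbp2, 1.26-fold for Drosha and at most 1.20-fold for the other members. No member varied more than genes of like abundance (edgeR's intercept-only quasi-likelihood fit), where 0.0165% of genes, 2 of 12147, did so at an adjusted p under 0.05. Without adjustment 644 genes had a p under 0.05, 0 of them members, and a robust fit called 0 genes. On simulated data this test was tried only at 10-fold changes, so its power at differences as small as these is not known. The smallest unadjusted p of a member was 0.0888 for Ago4, whose coefficient of variation of 16.9% lay above the median of 7.88% for genes with like counts.

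**Figure D3:**
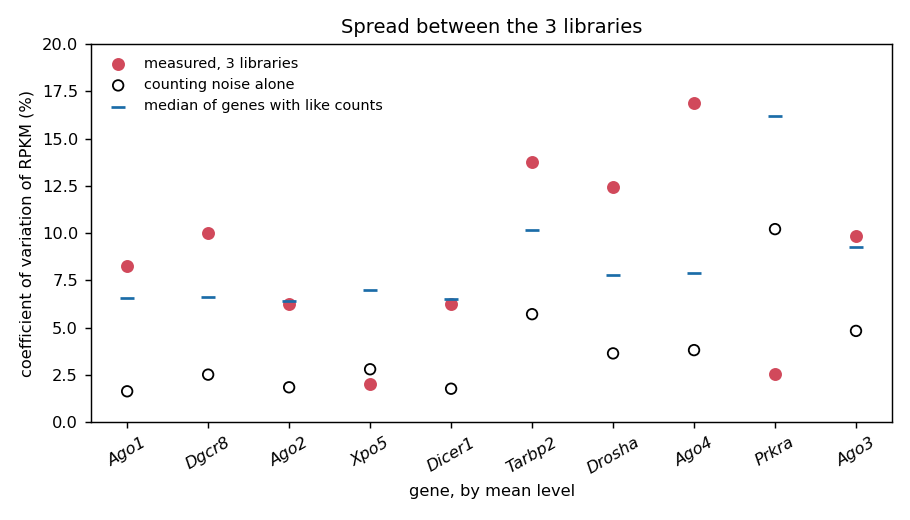
Coefficient of variation of RPKM over the 3 libraries (percent) for each member, with the value counting noise alone would give and the median of genes within 1.5-fold of its mean count. Ago4, Tarbp2 and Drosha vary most, at 16.9%, 13.7% and 12.4%, and Xpo5 and Prkra lie below counting noise.

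The members did not follow a common library order. Ago1, Ago4 and Dicer1 were highest in replicate 2 and lowest in replicate 3, whereas Drosha, Tarbp2 and Ago3 were highest in replicate 1 and lowest in replicate 2. Dgcr8 and Ago2 were highest in replicate 3 and lowest in replicate 2. In all, 5 of the 10 were lowest in replicate 2, where 36.3% of the genes tested were. Replicate 2 was thus the lowest library for Drosha, Dgcr8, Tarbp2, Ago2 and Ago3 and the highest for Ago1, Ago4, Dicer1 and Xpo5, with Argonautes on both sides.

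Tests of each pair of libraries against counting noise showed which of these steps were larger than it. Between replicates 2 and 1, Drosha (0.791-fold, adjusted p = 0.00041), Dgcr8 (0.840-fold, 0.000234), Tarbp2 (0.765-fold, 0.0157) and Ago2 (0.907-fold, 0.0071) were lower in replicate 2. Ago1 (1.10-fold, 0.00111) and Ago4 (1.16-fold, 0.0361) were higher there, while Dicer1 (0.11), Ago3 (0.0751), Xpo5 (0.577) and Prkra (0.931) did not pass (chi-square, Benjamini-Hochberg adjusted), against 25.7% of all genes that passed between this pair. So 6 members passed between this pair, 4 lower and 2 higher in replicate 2. Each of these tests sets single libraries against counting noise alone, and no member varied beyond genes of like abundance. A gene with more counts passes more readily. For pairs of libraries the share among genes of like counts was not computed, so the members are not shown to differ from such genes.

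Replicate 3 set against replicate 2 gave 5 members beyond counting noise, against 43.3% of all genes. Ago4 (0.711-fold, adjusted p = 2.17e-11), Ago1 (0.850-fold, 4.18e-13) and Dicer1 (0.882-fold, 7.24e-07) were lower in replicate 3, and Dgcr8 (1.20-fold, 6.51e-07) and Ago2 (1.13-fold, 7.37e-06) were higher. Drosha (0.307), Tarbp2 (0.305), Ago3 (0.828), Xpo5 (0.59) and Prkra (0.925) did not pass between these libraries. Set against replicate 1, replicate 3 was lower for Drosha (0.842-fold, 0.000952), Ago4 (0.825-fold, 0.000779), Ago1 (0.935-fold, 0.00803), Dicer1 (0.934-fold, 0.0137) and Ago3 (0.855-fold, 0.0343), while 32.9% of all genes passed between this pair. Tarbp2 (0.0539), Ago2 (0.531), Prkra (0.814), Dgcr8 (0.857) and Xpo5 (0.883) did not pass.

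**Figure D4:**
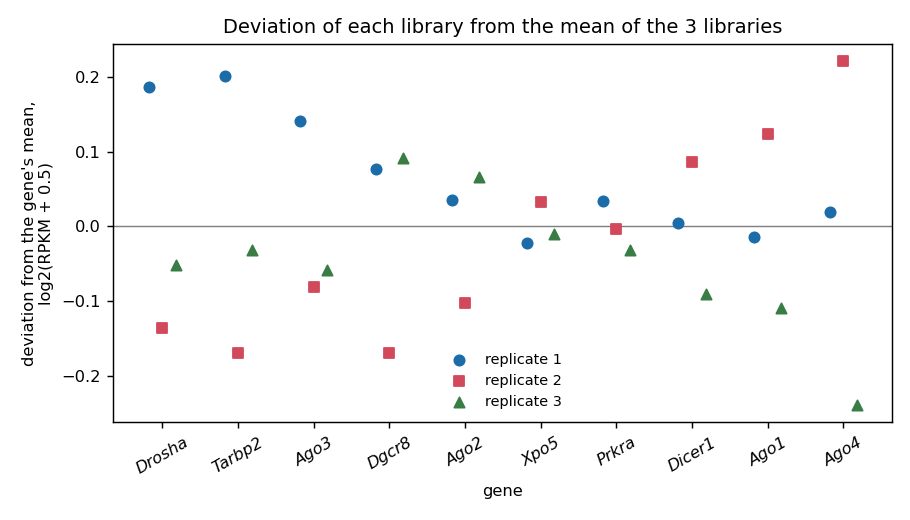
Each library's log2(RPKM + 0.5) minus the mean of all 3 for that gene. Replicate 2 lies lowest for Drosha, Tarbp2, Ago3, Dgcr8 and Ago2 and highest for Xpo5, Dicer1, Ago1 and Ago4, with Ago4 spanning from -0.24 in replicate 3 to 0.22 in replicate 2.

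Other transcripts moved between the same libraries. The 5 pre-B markers were all highest in replicate 2, as were 36.5% of the genes tested. Of the 6 neutrophil markers, 5 were highest in replicate 3, as were 35.1% of the genes tested, and lowest in replicate 1, as were 27.6%, and the sixth, Mpo, was lowest in replicate 2. A set of 6 mitosis genes (Mki67, Top2a, Ccna2, Ccnb1, Bub1 and Ube2c), chosen with earlier results known, summed to 1021, 809 and 1169 RPKM in replicates 1, 2 and 3, lowest in replicate 2 for all 6, where 36.3% of the genes tested were lowest. The part of cell make-up or cell cycle in the members' differences was not tested.

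Replicate 3 also differs from the others in its label, since it was processed with CASAVA 1.8.0 and replicates 1 and 2 with CASAVA 1.8.2. Version, depth and library cannot be told apart here, as 1 library is set against 2 in each case. None of the 10 members passed edgeR's quasi-likelihood test with Benjamini-Hochberg adjustment, which called 7 genes higher (0.0576%) and 2 lower (0.0165%) in replicate 3 of 12147 tested. Without adjustment 1169 genes had a p under 0.05, 1 of them a member, and DESeq2 called 36 genes, 0 of them members. That member was Ago4, at 5.95 RPKM in replicate 3 against a mean of 7.79 RPKM in replicates 1 and 2, a log2 fold change of -0.39 ± 0.15 (SE, unadjusted p = 0.0343 in edgeR's fit, adjusted p = 0.472). In replicate 3, 6 of the 10 members lay outside the range of replicates 1 and 2, where 71.2% of the genes tested did. The log2 fold changes of the other 9 members lay between -0.17 for Ago1 and 0.13 for Dgcr8. Signs are not settled for Drosha, Tarbp2, Ago3 and Xpo5, which turned when replicate 1 or replicate 2 was left out.

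Genes that work beside the members were read from 7 lists holding 75 genes, 63 of which exceeded 1 RPKM in every library (42.4% of all identifiers). Of the lists, 6 had medians above the 2.57 of all genes with a count on the log2(RPKM + 0.5) scale, and the Piwi list lay far below it. Of the 75 genes, 64 passed the filter on low counts. None of them passed the test of replicate 3 against replicates 1 and 2 (2 at an unadjusted p under 0.05) or varied beyond genes of like abundance (6 at an unadjusted p under 0.05) in edgeR's fits.

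The 8 Microprocessor cofactors had the highest list median, 6.88 ± 0.09, and each exceeded 10 RPKM in every library. The helicases Ddx5 (418 ± 26.5 RPKM) and Ddx17 (166 ± 9.97 RPKM), which help Drosha on a subset of hairpins, led with the RNA-binding protein gene Hnrnpa1 (144 ± 16.7 RPKM), known in human cells to bind the miR-18a hairpin. The cap-binding genes Ncbp1 (40.3 ± 4.44 RPKM) and Ncbp2 (24.8 ± 1.73 RPKM) were lowest. Every cofactor thus stood above Drosha itself at 10.8 ± 1.35 RPKM. All 8 differed between libraries by more than counting noise, against 54.6% of genes. That share was 82.6% among genes with counts like those of Ago1, and it was not computed for counts like those of the cofactors. None of the 8 varied beyond genes of like abundance.

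Genes that tail, edit or destroy precursors had a median of 3.97 ± 0.18. The uridyl transferases Tut4 (47.5 ± 3.68 RPKM) and Tut7 (39.5 ± 1.43 RPKM) and the editing enzyme Adar (31.9 ± 1.33 RPKM) were the highest of the 7. Lin28a (0.385 ± 0.215 RPKM) and Lin28b, with 0, 0 and 1 count in replicates 1, 2 and 3, were lowest. The LIN28 proteins are known to block let-7 maturation by recruiting TUT4 and TUT7, so the transferase transcripts were present while those of their recruiting factors were near or below 1 RPKM.

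Among exportins and the Ran cycle, the Ran-binding gene Ranbp1 (72.5 ± 7.86 RPKM), the Ran GTPase activator Rangap1 (72.3 ± 14.3 RPKM) and the importin alpha exporter Cse1l (57.0 ± 3.32 RPKM) were highest, and Xpo4 (9.92 ± 0.36 RPKM) and the tRNA exporter Xpot (6.47 ± 0.69 RPKM) lowest. Xpo5, at 22.4 RPKM, stood below the protein exporter Xpo1 (55.1 ± 4.64 RPKM) and Xpo6 (38.1 ± 1.89 RPKM) and above Xpo7 (9.98 ± 0.20 RPKM), 3 genes named after their values were seen. Of the 10 genes of this list, 8 were lowest in replicate 2, against 36.3% of the genes tested, where Xpo5 was highest, although Xpo5 did not vary beyond counting noise.

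The list of Argonaute loading and silencing scaffolds had a median of 5.05 ± 0.14. It was led by the chaperones Hsp90ab1 (414 ± 33.985 RPKM) and Hspa8 (107 ± 34.8 RPKM), which help to load small RNA duplexes into Argonaute and serve many other proteins, and by Limd1 (69.1 ± 4.93 RPKM), a scaffold linked to Argonaute complexes in human cells. The lowest were the GW182 family gene Tnrc6b (16.1 ± 1.27 RPKM) and the helicase Mov10 (7.02 ± 0.71 RPKM). Hspa8 stood at 116, 68.7 and 137 RPKM in replicates 1, 2 and 3, lowest in replicate 2. All 3 Tnrc6 genes were highest in replicate 2 and lowest in replicate 3, an observation made after the values were seen. Of the genes tested, 36.5% were highest in replicate 2 and 36.1% lowest in replicate 3. None of the Tnrc6 genes varied beyond genes of like abundance, and 3 libraries cannot show that genes vary together.

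Genes of deadenylation and decapping, the step after Argonaute, were present throughout. All 19 exceeded 1 RPKM and 18 exceeded 10 RPKM in every library, and their median was 5.25 ± 0.05. The helicase Ddx6 (101.4 ± 8.69 RPKM), the P-body protein gene Lsm14a (93.9 ± 5.25 RPKM) and the deadenylase Cnot6 (81.8 ± 4.36 RPKM) led, and the exonuclease Xrn1 (15.0 ± 1.55 RPKM) and Dcp1b (4.39 ± 0.58 RPKM), a decapping cofactor, were lowest.

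Other double-stranded RNA binding proteins were mixed, with a median of 4.43 ± 0.10. Dhx9 (123 ± 7.66 RPKM), a helicase, Ilf2 (56.4 ± 4.34 RPKM) and Zfr (40.1 ± 2.90 RPKM) were above all 10 members, and Stau2 (2.96 ± 0.61 RPKM) and the editing enzyme Adarb1 (0.448 ± 0.152 RPKM) below them all. The Piwi list, the germline branch of the Argonaute family with its cofactors, had 0 of 9 genes above 1 RPKM, and Piwil1, Mael and Tdrd1 had no counts in any library, which allows up to 0.0635 RPKM for Piwil1 (3 counts in replicate 2). Piwil2 (0.0635 ± 0.0058 RPKM), Tdrd9 (0.0537 ± 0.0184 RPKM) and Pld6 (0.0327 ± 0.0286 RPKM) had the highest observed values of that list, although 3 counts would allow Mael up to 0.162 RPKM in replicate 2.

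**Figure D5:**
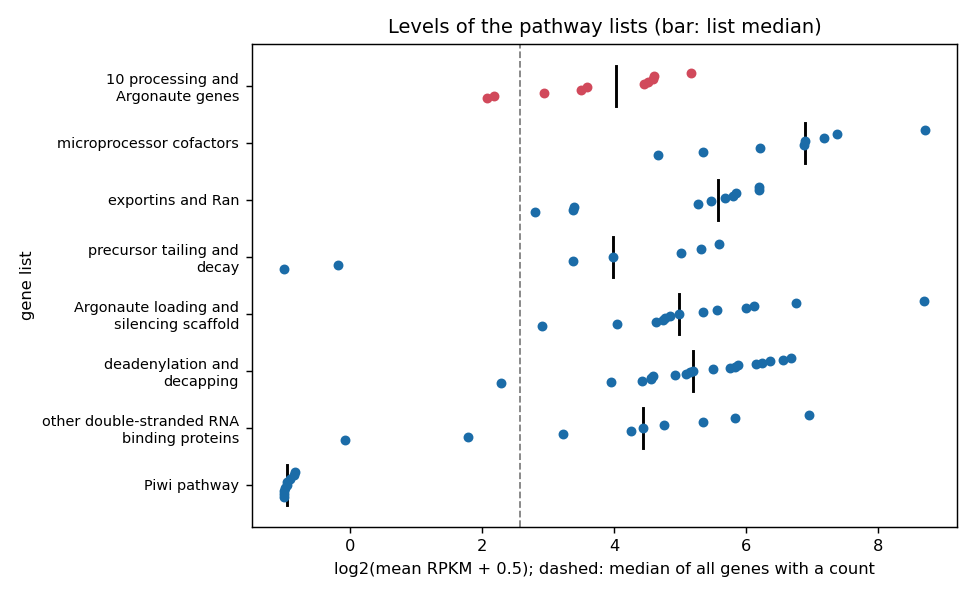
Mean level of each gene of the 10 members and the 7 lists, as log2(mean RPKM + 0.5), with a bar at the list median and a dashed line at 2.57, the median of all genes with a count. The cofactors lie to the right of most members, and the Piwi genes lie at the left edge.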

How the data were processed

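RNA of 3 libraries of 1 group was sequenced, and the authors deposited raw read counts per Entrez gene with a gene length in bases, per the file headers. Reads were summarised with featureCounts on mm9, per the submitters' processing notes. The labels give CASAVA 1.8.0 for replicate 3 and CASAVA 1.8.2 for replicates 1 and 2. Not given in the sources used here are the aligner, annotation, read length, strand setting and rule for reads shared by genes. The sample tables and the series table hold equal counts.

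Symbols came from RefSeq GRCm38.p6 by Entrez identifier (24176 of 26286 matched), and start regions from RefSeq. Exon overlaps and words of 31 bases were taken from GENCODE M21. Its exons need not be those counted: Dgcr8 has 7696 exon bases there against a deposited length of 4226, and Ago2 14031 against 8031. No mm9 coordinates were used. The fits used edgeR 4.0.16 (with limma 3.58.1) and, as an alternative, DESeq2 1.42.0, under R 4.3.3. TMM factors were 1.0003, 0.9969 and 1.0028 for replicates 1, 2 and 3. RPKM was computed from the counts, TMM-scaled totals and deposited lengths. Tests ran on the 12147 genes kept by filterByExpr (minimum count 10, minimum total 15), with Benjamini-Hochberg adjustment and a threshold of 0.05. Fold change errors are the log2 fold change divided by the root of its F value. Totals from 12021576 to 32086649 make replicate 3 the most precise, while Poisson tests and the upper limit of 3 counts for a gene at 0 take in counting error alone, with no molecular identifiers named in the labels.

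The members and lists were chosen with earlier results of these data known. In addition, 1 marker and 1 list gene are not reported here and enter no list count or median. The rule for named genes takes all 10 members and, of each list, the 3 highest, the 2 lowest and any gene past the test of replicate 3 against replicates 1 and 2 or the spread among genes of like abundance. The Poisson test names no list gene. On simulated data, the test of replicate 3 against replicates 1 and 2 recovered 91 of 100 genes changed 4-fold. It recovered 63 of 100 changed 2-fold, and made 5 false calls among 12009 genes. All genes in that simulation had the same dispersion. Changes below 2-fold were not tried, so its power at the smaller differences of the members is not known. The test against counting noise recovered 176 of 200 genes changed 2-fold in 1 library, with 8 false calls. The test among genes of like abundance was simulated only for 10-fold changes in 1 library, and recovered 199 of 200. Alternatives were other scalings, no filter, CPM, other pseudocounts, a robust fit, DESeq2, a thinned replicate 3 and leaving out each replicate. Figures were drawn with matplotlib 3.10.9.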

Additional observations from a re-analysis of the deposited data

How the results depend on the processing

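No paired analysis was possible because the libraries form 1 group with no second condition to share replicate numbers. Ago1 remained the highest member under every scaling, pseudocount and omitted replicate and with CPM in place of RPKM, and its share of the Argonaute sum stayed between 48.5% and 51.4%. With CPM, which leaves out gene length, 4 differences changed sign: Dgcr8 minus Ago2 became -0.90, Xpo5 minus Dicer1 -1.34, Tarbp2 minus Drosha -1.29 and Prkra minus Ago3 -2.08 on the log2 scale. Length is the only quantity that differs between these scales.

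The Poisson count of 6627 genes ranged from 3145 (without replicate 3) to 5590 (without replicate 1) when a replicate was left out, and that of members from 5 to 6. Without replicate 1, Drosha, Tarbp2 and Ago3 no longer passed, without replicate 2 Dgcr8, Ago2 and Tarbp2, and without replicate 3 Dicer1 and Ago3, with fewer libraries by construction. The 2 genes that varied beyond genes of like abundance became 46 with all genes with a count and 0 in a robust fit, and 2 without replicate 3, 8 without replicate 1 and 44 without replicate 2. No member was called in any of these. For replicate 3 against replicates 1 and 2, the 9 genes called became 23 without scaling, 36 with DESeq2 and 0 both with all genes with a count and with replicate 3 thinned. The cause was not tested. No member passed under any of them.

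With replicate 3 thinned, the log2 fold changes of Xpo5 and Tarbp2 turned to 0.023 and 0.13. With replicate 1 or 2 left out, which leaves no test, the fold change ran from -0.25 to 0.093 for Drosha, from -0.24 to 0.15 for Tarbp2, from -0.23 to 0.030 for Ago3 and from -0.039 to 0.013 for Xpo5. The contrast could not be made without replicate 3. Depth limits Prkra most, with 75 to 197 counts per library.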
